A study of Mus musculus with 3 samples.

Results

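The cells described here are the cycling C1q cells among CD45-selected cells of infarcted mouse hearts: 1631 of 25640 cells with at least 200 genes. They were chosen by 3 limits. The molecules of Top2a, Mki67, Cenpe, Tpx2 and Prc1 summed to at least 10, the complement genes C1qa, C1qb and C1qc together made up at least 0.1% of the cell's molecules, and no molecule of Cd3e, Cd3d, Cd3g or Cd79a was present. The limits on C1q and lymphoid transcripts left 14485 C1q cells, so the cycling cells were 11.3% of them. The comparison cells were the 7490 C1q cells of the same sample tags in which the 5-gene sum was 0, called non-cycling C1q cells below. A further 5364 C1q cells had a sum of 1 to 9 and belonged to neither set.

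The study sequenced leukocytes of the infarcted heart after permanent ligation of a coronary artery, at several time points, in F7fl/fl CX3CR1Cre mice and in F7fl/fl WT mice. Both groups carry the floxed allele of F7, the gene of coagulation factor VII, and the first also carries Cre recombinase under the control of Cx3cr1, the fractalkine receptor gene of monocytes and macrophages. Cells of 18 sample tags, which the labels describe as biological replicates, were pooled into 3 multiplexed libraries on the BD Rhapsody platform, and libraries 1, 2 and 3 held 7, 5 and 6 of them. The labels used here give no genotype or time for a single tag, so each comparison below sets cells against other cells within a tag, and none is between genotypes or days.

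A cell that commits to division first raises the genes of DNA replication, under the E2F factors, and later the genes of mitosis, which are driven by FOXM1 and B-MYB with the MuvB complex at CHR elements and by NF-Y at CCAAT boxes. Macrophages are unusual among differentiated cells in that they can re-enter this programme. The healthy heart holds resident macrophages, marked by LYVE1, FOLR2 and TIMD4, that renew by local division. An infarct also recruits LY6C- and CCR2-positive monocytes that turn into macrophages and can then divide in the tissue.

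Libraries 1, 2 and 3 held 15274, 4953 and 5535 cells with 349827525, 88942652 and 93812439 molecules. Library 1 supplied 1229 of the cycling C1q cells (75.4%), library 2 held 241 and library 3 held 161. Each tag had between 13 and 221 of them, with a median of 49. The cycling cells were deeper than the comparison cells: the median was 41990 molecules and 6109 genes per cell against 15896.5 molecules and 3734.5 genes, and 91.1% of them lay above the median depth of the non-cycling cells of their own tag. A sum of at least 10 is also easier to reach in a deep cell. For this reason the comparison of gene levels with non-cycling C1q cells was repeated against depth-matched cells. These were the 1290 non-cycling C1q cells whose depth lay between the 25th and 75th percentile of the cycling cells of their tag (median 33031.5 molecules). All cycling cells were kept in that comparison, and their median over all tags, 41990 molecules, stayed higher. The match narrows the pooled depth gap and may not close it, and the gap left within single tags was not measured. A dividing cell may hold more RNA, which was not measured here, so this match may also remove part of a property of such cells. Both values are given wherever the call changed. The 2% of cells with the highest doublet scores in their library included 75 cycling cells (4.60%) and 125 non-cycling cells (1.67%), and leaving those cells out left the number of called genes within 1.5 times. Within a library no cell index was shared between tags (0 in 46 pairs), and between libraries 7 were shared in 107 pairs.

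The label of macrophage held against its markers. All 10 macrophage markers found in the tables were present, and their summed level lay between 8665 and 13760 CPM over the tags (molecules of a gene or list for every 1000000 molecules of the set), with a median of 9908. Cd68, a lysosomal glycoprotein of phagocytes, had a median of 1533 CPM and Csf1r, the receptor for the macrophage growth factor CSF1, 754 CPM. The same 10 markers summed to 18233 CPM (11399 to 25383) in non-cycling cells, and all 10 were called lower in cycling cells. Markers of other classes were low. The T cell list summed to 61.9 to 295 CPM against 115 to 280 CPM in non-cycling cells, nearly all of it from Il7r (165 CPM), with Cd3e, Cd3d and Cd3g at 0 by the rule. The neutrophil list summed to 23.2 to 403 CPM against 83.6 to 315 CPM, with Ly6g at a median of 0. The fibroblast list ranged from 24.7 to 4057 CPM against 26.9 to 1173 CPM, and 0 of its 6 tested genes were called, but at matched depth 3 of 5 were called higher. Among the cycling cells 10, in 9 tags, had at least 0.5% of their molecules from the 7 fibroblast markers, at a median of 71550 molecules per cell. Whether these are doublets was not tested. Tag 1 of library 2, with 28 cycling cells, stood apart from the other tags: its cycling cells had the lowest Ccr2 (15.8 CPM) and H2-Aa (101 CPM) of all tags.

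The genes of the rule and those that travel with them are given as a description, since the rule set them apart. Top2a, the topoisomerase that untangles replicated chromosomes, lay between 627 and 1291 CPM over the 18 tags with a median of 795. Mki67, which coats mitotic chromosomes, lay between 543 and 1161 CPM with a median of 701. Cenpe, a kinetochore motor, Tpx2, a spindle assembly factor, and Prc1, which bundles the midzone microtubules, had medians of 232, 231 and 225 CPM. All 5 are at 0 in the comparison cells by construction. Pclaf, the PCNA clamp-associated factor, was not used by the rule and stood at 421 CPM (229 to 525) against 2.05 CPM (0.426 to 4.21). The sum of the 5 genes per cell had a median of 59 and reached 544. Just inside the limit, the 125 cells with a sum of 10 or 11 had 29.7 CPM of Pclaf and 26.2 CPM of Birc5. Just outside it, the 201 cells with a sum of 8 or 9 had 37.1 CPM of Pclaf and 15.9 CPM of Birc5. The limit therefore runs through a continuum and not through a gap.

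Both arms of the division programme were present in the cycling cells. The 46 genes of the S phase list summed to 3788 CPM (2595 to 5256) against 654 CPM (568 to 830), and the 52 genes of the G2 and M phase list to 7187 CPM (5992 to 11338) against 781 CPM (693 to 908). Pcna, the sliding clamp of the replication fork, had a median of 481 CPM against 145 CPM. Mcm5, a subunit of the replicative helicase, had 168 CPM against 14.4 CPM. Ube2c, the ubiquitin-conjugating enzyme of the anaphase-promoting complex, had 338 CPM against 2.71 CPM, and Birc5, the survivin of the chromosomal passenger complex, 280 CPM against 2.10 CPM. The tubulin genes Tuba1b and Tubb5, which the spindle consumes, had 1194 and 1012 CPM against 215 and 230 CPM. For each of these genes the lowest tag of the cycling cells was above the highest tag of the comparison cells.

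Promoters of 3 genes of the mitotic arm and 1 of the replication arm are shown because they carry the elements through which the mitotic and replication programmes are read. The sequences are from RefSeq on GRCm38.p6, run 5′ to 3′ on the gene's strand and end at the base before the start of transcription. Capitals mark, on either strand, the CCAAT box, the CHR element with the letters TTTGAA or with the letters TTCGAA, and the E2F element with the letters TTTGGCGC or with the letters TTTCCCGC, and no marked letters of different kinds overlap. The stretches are chr11:99024190-99024309 on the minus strand for Top2a, chr2:164769809-164769928 on the plus strand for Ube2c, chr4:118437344-118437423 on the minus strand for Cdc20, the activator of the anaphase-promoting complex, and chr8:75109349-75109508 on the plus strand for Mcm5.
Top2a: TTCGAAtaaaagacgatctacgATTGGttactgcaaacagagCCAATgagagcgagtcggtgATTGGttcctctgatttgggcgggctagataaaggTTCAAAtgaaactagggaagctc
Ube2c: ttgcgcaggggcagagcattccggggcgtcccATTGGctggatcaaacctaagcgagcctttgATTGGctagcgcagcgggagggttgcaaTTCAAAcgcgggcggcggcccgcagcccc
Cdc20: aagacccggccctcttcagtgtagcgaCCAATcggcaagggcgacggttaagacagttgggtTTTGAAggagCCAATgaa
Mcm5: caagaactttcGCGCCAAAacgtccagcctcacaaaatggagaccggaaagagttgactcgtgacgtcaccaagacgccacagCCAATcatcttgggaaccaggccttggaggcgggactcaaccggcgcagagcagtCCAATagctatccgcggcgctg
The Top2a stretch holds 3 CCAAT boxes and 2 CHR matches, those of Ube2c and Cdc20 hold 2 each followed by or set around 1 CHR match, and that of Mcm5 holds 2 CCAAT boxes and 1 E2F match.

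The same letters were searched in the 250 bases before the start of transcription. At least 2 CCAAT boxes were found in 54% of the 50 mitotic and rule genes with an entry (of 57). They were found in 47.1% of the 34 S phase genes with an entry (of 46) and in 11.5% of all 27025 genes of the RefSeq table. The CHR letters were found in 48%, 20.6% and 19.6%. At least 2 CCAAT boxes together with the CHR letters were found in 28%, 5.88% and 2.01%, and the E2F letters in 4%, 26.5% and 1.51%. These are matches of letters and not measured binding.

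The share of C1q cells that cycled differed between tags from 3.12% to 18.0%, with a median of 7.77%. In library 1 the tags lay between 11.3% and 18.0%, in library 2 between 4.56% and 11.4% and in library 3 between 3.12% and 6.49%. Every tag of library 1 was above every tag of library 3, while the highest tag of library 2 lay within the range of library 1. When the limit was set at 0.05% of the cell's molecules in place of 10 molecules, which removes the advantage of deep cells, the tags lay between 3.13% and 14.9%. With that limit the lowest tag of library 1 (9.60%) was still above the highest of library 3 (6.93%). Among C1q cells within the middle 50% of the depth of the cycling cells of their tag the share was 4.38% to 33.0%, with a median of 18.7%. At that depth libraries 1 and 3 overlapped, with 18.2% in the lowest tag of library 1 and 20.5% in the highest of library 3. The libraries differed in beads and in pipeline release, and their mix of genotypes and days is not given. The header of library 1 names it F7_d3, and d3 may stand for the day on which all its cells were taken. Names of libraries 2 and 3 give no day. Depth, chemistry, day and genotype cannot be told apart in this difference.

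**Figure D1:**
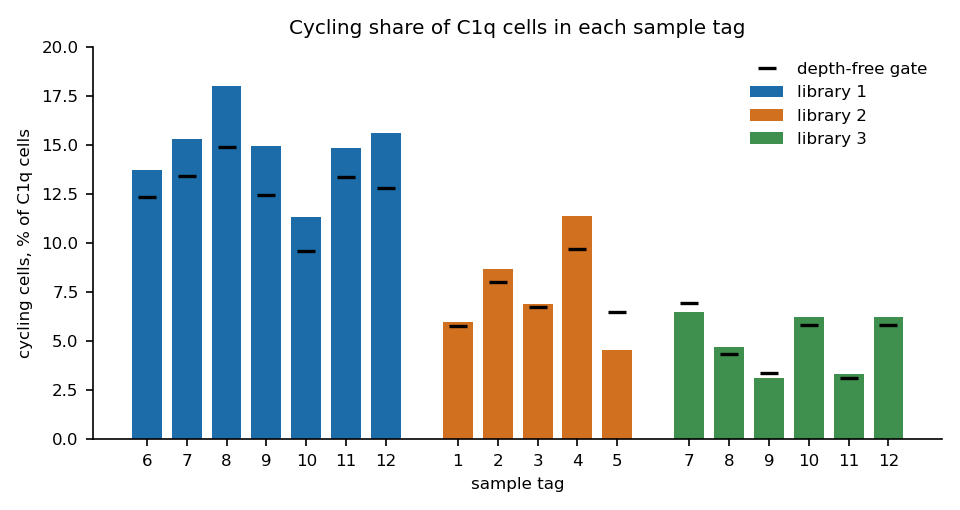
Cycling cells as a percentage of the C1q cells of each sample tag (vertical axis), with tags along the horizontal axis and colour for the library. Bars use the limit of 10 molecules and dashes the limit of 0.05% of molecules. The 7 tags of library 1 lie between 11.3% and 18.0% and those of library 3 between 3.12% and 6.49%.

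Molecule counts were summed over the cells of each set in each tag, and the 18 pairs of sums were compared with edgeR's quasi-likelihood test with the tag as a block, with an adjusted p below 0.05 called. Of 10912 genes tested, 28.0% were called higher and 33.7% lower in cycling cells, and the median log2 difference was −0.04. Against depth-matched cells the same test called 24.9% of 9366 genes higher and 29.2% lower, with a median of −0.03. With so many calls a list is read against these shares. Fits of single libraries called fewer genes in libraries 2 and 3. Library 1 alone had 3237 of 11694 tested genes higher and 3346 lower. Library 2 alone had 1940 and 1897 of 10347, and library 3 alone 1712 and 1566 of 9845. Counts of a list in a single library are read against these numbers. Where a count of 0 is given below for a direction of a list, it was also 0 at an unadjusted p below 0.05 and with DESeq2 in the comparison with all non-cycling cells, except where stated. The cell cycle lists, which the rule moved, had 46 of 46, 52 of 52 and, for chromatin and tubulin genes, 18 of 18 members called higher, and nothing is read from those counts.

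Regulators of the division programme were mostly higher. The rule chose cells by genes of the same programme, so the higher levels of these regulators are given as a description. Of 21 tested regulators 15 were called higher and 3 lower in cycling cells (15 and 2 at matched depth), with a median log2 difference of 0.54. Foxm1, the mitotic transcription factor, lay between 21.9 and 82.0 CPM over the tags against 0.374 to 1.51 CPM, a log2 difference of 5.45 (SE 0.09). Ccne1, the cyclin that opens S phase, had a median of 25.2 CPM against 1.72 CPM (log2 3.88, SE 0.14). Rbl1, the pocket protein p107 and itself an E2F target, had 77.4 CPM against 16.2 CPM (log2 2.18). For these 3 genes no tag of the cycling cells overlapped a tag of the comparison cells, in the direction in which 4.91% of all tested genes did the same. E2f1 (70.5 against 22.2 CPM, log2 1.54) and Ccnd1, cyclin D1, which relays growth factor signals (159 against 89.7 CPM, log2 0.67), were also called higher. Rb1, the retinoblastoma protein that restrains E2F, was called lower by 0.29 on the log2 scale, at 93.0 against 106 CPM.

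Genes that restrain division were mostly lower. Of 15 tested brakes 9 were called lower and 2 higher (10 and 2 of 14 at matched depth), with a median log2 difference of −0.58 and, at matched depth, −0.47. Klf4, a Krüppel-like factor of the monocyte lineage that slows division, lay between 176 and 469 CPM in the cycling cells of the 18 tags, with a median of 308, and between 415 and 718 CPM in non-cycling cells, with a median of 581. Every tag was lower in its cycling cells, although the ranges overlapped. The log2 difference was −0.92 (SE 0.06, adjusted p = 1.71e-12) and −0.78 at matched depth. Maf, a transcription factor of mature macrophages, had 346 against 484 CPM (log2 −0.65, and −0.49 at matched depth) and was lower in 18 of 18 tags. Btg2, an antiproliferative immediate early gene, had 102 against 215 CPM (log2 −1.15), and 152 CPM in depth-matched cells (log2 −0.58). Cdkn1a, the inhibitor p21, had 404 against 592 CPM (log2 −0.58, and −0.30 at matched depth).

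The inhibitors Cdkn2c and Cdkn2d, p18 and p19 of the INK4 family, which bind CDK4 and CDK6, went the other way. Cdkn2c lay between 45.0 and 97.5 CPM in cycling cells and between 3.09 and 12.8 CPM in non-cycling cells, a log2 difference of 3.42 (SE 0.11). Cdkn2d had 60.3 against 20.3 CPM (log2 1.52). In both, every tag of the cycling cells was above every tag of the comparison cells. Whether they travel with the genes of the rule was not tested, so their higher levels are given as a description.

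**Figure D2:**
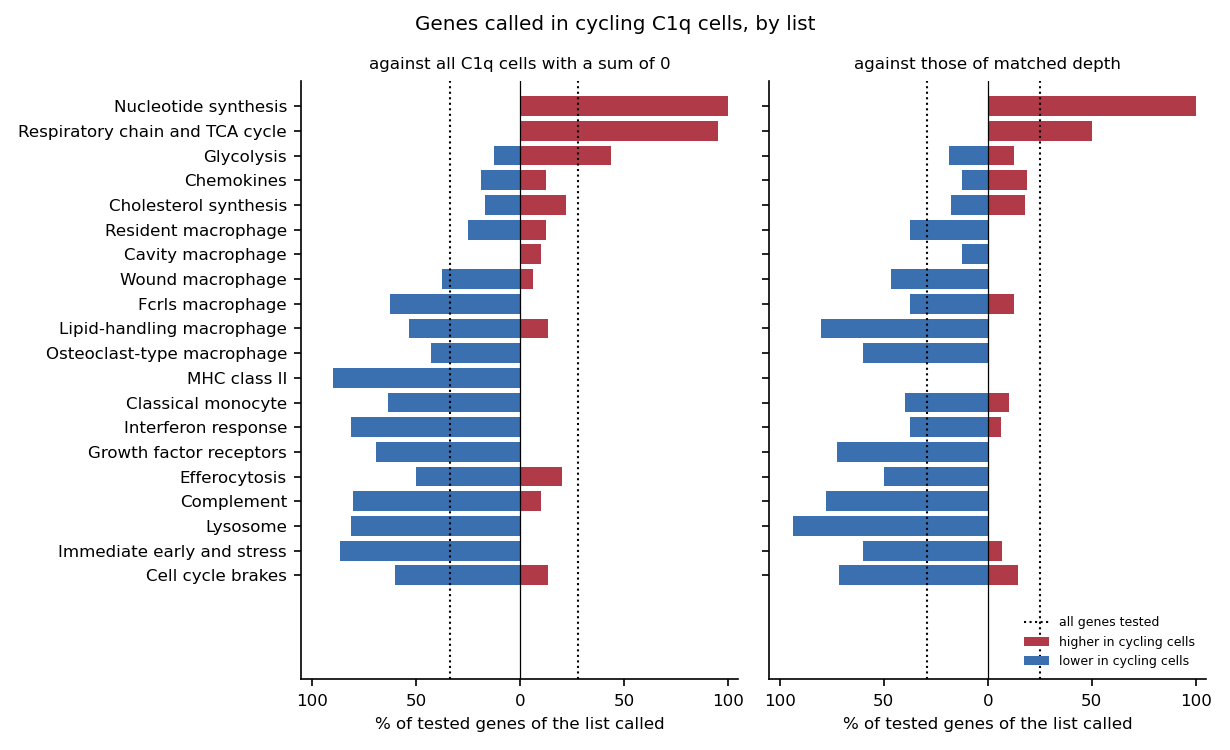
Percentage of the tested genes of each list (horizontal axis) called higher (red, to the right) or lower (blue, to the left) in cycling C1q cells, against all C1q cells with a 5-gene sum of 0 (left panel) and against those of matched depth (right panel). Dotted lines mark all tested genes (28.0% higher and 33.7% lower, and at matched depth 24.9% and 29.2%), and the MHC class II list passes from 9 of 10 lower to 0 of 7.

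The cycling cells carried less of several genes typical of mature tissue macrophages. Apoe, the apolipoprotein that exports cholesterol from macrophages, lay between 3154 and 6305 CPM with a median of 3912, against 4548 to 15500 CPM with a median of 10094, and was lower in every tag (log2 −1.17, SE 0.08, adjusted p = 1.06e-11). At matched depth its comparison level was 7961 CPM and the log2 difference −1.0. Selenop, the selenium carrier protein, lay between 870 and 2458 CPM against 2613 to 5563 CPM. Its highest cycling tag was thus below the lowest non-cycling tag, as in 0.156% of all genes tested, and the log2 difference was −1.09 (SE 0.11), or −0.96 at matched depth, where the ranges overlapped and 0.0854% of all genes lay below without overlap. Ms4a7, a membrane protein of tissue macrophages, had 814 against 1590 CPM (log2 −1.04).

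Genes of lipid-handling macrophages separated by depth. Of 15 tested 8 were called lower and 2 higher, with a median log2 difference of −0.21, and at matched depth 12 were lower and 0 higher, with a median of −0.57. Abca1, the cholesterol efflux pump, had 289 against 427 CPM (log2 −0.64, and −0.76 at matched depth), and Trem2, the lipid receptor of these cells, 502 against 774 CPM (log2 −0.48 and −0.63). Both were lower in 18 of 18 tags. Gpnmb, a glycoprotein of lipid-laden phagocytes, lay between 405 and 3325 CPM against 599 to 2807 CPM, with a log2 difference of −0.21 that was not called (adjusted p = 0.0811). Against depth-matched cells, which had 2133 CPM, it was −0.84 and called (adjusted p = 5.29e-07). Spp1, osteopontin, had 4106 against 3003 CPM (log2 0.09, adjusted p = 0.191) and was lower than the 5622 CPM of depth-matched cells (log2 −0.57). Fabp4, a fatty acid carrier, had 61.3 against 35.5 CPM and was called in neither comparison (log2 0.27 and −0.45).

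The resident list showed no common direction. Of 16 tested 4 were called lower and 2 higher, with a median log2 difference of −0.16, and at matched depth 6 lower and 0 higher, with a median of −0.31. Folr2, a folate receptor of resident macrophages, lay between 133 and 396 CPM against 120 to 364 CPM (log2 0.32, adjusted p = 0.00752, higher in 16 of 18 tags), but depth-matched cells had 213 CPM and the log2 difference was −0.12 (adjusted p = 0.321). Lyve1, the hyaluronan receptor of perivascular macrophages, lay between 2.23 and 428 CPM against 6.67 to 179 CPM and was not called (log2 0.65, adjusted p = 0.0760). Its log2 difference was −0.32 in library 1, 1.44 in library 2 and 1.02 in library 3. Fcna, ficolin A, had 90.1 against 37.2 CPM (log2 0.86, adjusted p = 0.0108), with −0.11 in library 1 and 1.41 and 1.54 in libraries 2 and 3, and was not called at matched depth (log2 0.31, adjusted p = 0.334). Igf1, the growth factor that resident macrophages release, had 343 against 419 CPM (log2 −0.38, and −0.66 at matched depth), and Wwp1, a ubiquitin ligase, 214 against 302 CPM (log2 −0.60).

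MHC class II genes, which present antigen to helper T cells, were called lower against all non-cycling cells and were not called against those of matched depth. All 9 called genes of 10 tested were lower in cycling cells, with a median log2 difference of −1.08. H2-Aa lay between 101 and 2483 CPM with a median of 528, against 297 to 3743 CPM with a median of 1876, and was lower in 17 of 18 tags (log2 −1.42, SE 0.21, adjusted p = 3.24e-06). Depth-matched cells had 620 CPM, and against them the log2 difference was −0.09 (SE 0.24, adjusted p = 0.794). H2-Ab1 passed from −1.33 to −0.06, H2-Eb1 from −1.30 to 0.05 and Cd74, the invariant chain, from −1.35 to −0.03. At matched depth 0 of 7 tested genes were called in either direction. The median levels of H2-Aa were thus close in cycling and depth-matched cells, but single tags differed in both directions. In tag 9 of library 1 the cycling cells had 501 against 121 CPM. In tag 1 of library 2 they had 101 against 1448 CPM. The part that depth plays in the class II levels was not tested further.

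Monocyte genes were low in the cycling cells. Of 11 tested genes of classical monocytes 7 were called lower and 0 higher (median log2 −1.11), and 4 of 10 lower and 1 higher at matched depth (median −0.37). Ly6c2, the surface antigen that defines inflammatory monocytes, had a median of 7.09 CPM (1.66 to 27.6) against 40.9 CPM (15.4 to 320). Its log2 difference was −3.47 (SE 0.35, adjusted p = 8.29e-09) and −2.15 at matched depth (adjusted p = 4.87e-05). Plac8, expressed in recently arrived monocytes, was lower by 1.98 on the log2 scale, and by 1.19 at matched depth. Ccr2, the chemokine receptor that brings monocytes into tissue, was not low in absolute terms: it lay between 15.8 and 480 CPM with a median of 315, against 342 to 942 CPM with a median of 481 (log2 −1.20, SE 0.17, lower in 18 of 18 tags). Depth-matched cells had 264 CPM of Ccr2, and against them the difference was −0.23 (adjusted p = 0.254). With the limit at 0.05% of molecules as well as matched depth, Ccr2 was called lower (−0.57, adjusted p = 0.00601), so its call at matched depth depended on the limit. By library, classical monocyte genes were lower in 11 of 11 tests in library 1 (median log2 −1.47). In library 2, 4 of 10 were lower and 2 higher (median −0.20), and in library 3, 3 were lower and 2 higher (median −0.05). Of all genes tested, 3346 of 11694 were lower in library 1 alone, 1897 of 10347 in library 2 and 1566 of 9845 in library 3.

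Cx3cr1 turned with depth in the opposite sense. It lay between 87.5 and 536 CPM with a median of 227 in cycling cells and between 77.8 and 443 CPM with a median of 195 in non-cycling cells, a log2 difference of −0.04 (SE 0.14, adjusted p = 0.846). Depth-matched non-cycling cells had only 97.3 CPM, and against them the cycling cells were higher by 0.96 (SE 0.14, adjusted p = 4.51e-06). The log2 difference against all non-cycling cells was 0.44 in library 1, −0.32 in library 2 and −0.38 in library 3. Spn, CD43, which marks patrolling monocytes and is also carried by dividing leukocytes, had 30.9 against 21.2 CPM (log2 1.07) and 10.6 CPM in depth-matched cells (log2 1.70), whose highest tag was below the lowest cycling tag, as in 4.45% of the genes tested at matched depth. The list of non-classical monocytes did not move as one: 1 gene was called higher, Spn, and 3 lower of 6 tested. Among the lower ones, Nr4a1, the orphan nuclear receptor needed for patrolling monocytes, had 287 against 476 CPM (log2 −0.73, and −0.46 at matched depth).

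**Figure D3:**
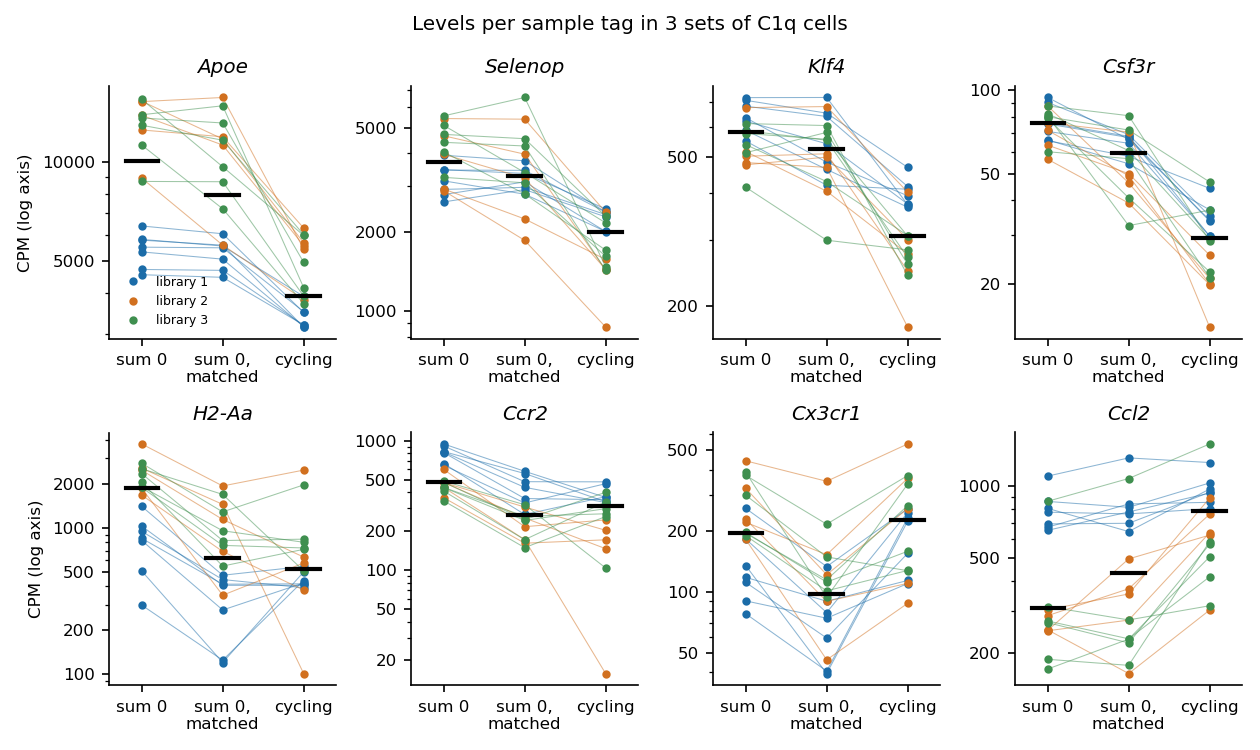
Levels in CPM (vertical log axis) of 8 genes in each sample tag, in C1q cells with a 5-gene sum of 0, in those of matched depth and in cycling cells, with lines joining the sets of 1 tag, colour for the library and black bars for the median. Apoe, Selenop, Klf4 and Csf3r were called lower in the cycling cells against both comparison sets, H2-Aa and Ccr2 were called lower against the unmatched set and not against the matched set plotted here, and Cx3cr1 is higher than in the matched set (227 against 97.3 CPM at the median).

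Wound, Fcrls, interferon, cavity and osteoclast genes completed the survey of subtypes. Of 16 tested wound macrophage genes 6 were called lower and 1 higher (7 and 0 of 15 at matched depth), where 33.7% of all genes tested were lower. By library, 11 were lower and 1 higher in library 1 (median log2 −0.91). In library 2, 4 were lower and 2 higher (median 0.03), and in library 3, 1 was lower and 2 higher (median −0.17). Of all genes tested, 3346 of 11694 were lower in library 1 alone, 1897 of 10347 in library 2 and 1566 of 9845 in library 3. Thbs1, thrombospondin 1, which activates latent TGF-β, had 900 against 1993 CPM (log2 −1.03, SE 0.19), Vegfa, the angiogenic factor, 146 against 266 CPM (log2 −0.95) and Chil3, the chitinase-like protein Ym1, 23.2 against 43.8 CPM (log2 −1.71, lower in 18 of 18 tags). Mmp12, macrophage elastase, was the 1 higher gene, at 310 against 158 CPM (log2 0.76), and was not called at matched depth (log2 0.19, adjusted p = 0.514). Arg1, arginase 1, lay between 231 and 4210 CPM against 113 to 4290 CPM and was not called (log2 0.12, adjusted p = 0.71). By library the log2 difference of Arg1 was −0.86, 0.76 and 0.88, so the tags of library 1 and those of libraries 2 and 3 moved in opposite directions.

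The Fcrls list, named for a Fc receptor-like gene best known from microglia, had 5 of 8 genes called lower (3 lower and 1 higher at matched depth, the higher one being Cx3cr1). Hpgds, a prostaglandin D synthase, was among the lower ones, at 172 against 212 CPM (log2 −0.44). Fcrls itself was not called (516 against 587 CPM, log2 −0.18, adjusted p = 0.313), with 0.51 in library 1, −0.30 in library 2 and −0.90 in library 3.

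Interferon-stimulated genes were lower in 13 of 16 tests and higher in 0, with a median log2 difference of −0.59, and at matched depth 6 were lower and 1 higher with a median of −0.41. Slfn5, a Schlafen family repressor, had 106 against 232 CPM and −1.32 on the log2 scale in both comparisons. Irf7, the amplifier of the response, had 45.4 against 108 CPM (log2 −1.06 and −0.80). Isg15, the ubiquitin-like modifier, had 37.5 against 63.0 CPM (log2 −0.58) and was not called at matched depth (log2 −0.24, adjusted p = 0.250).

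Of 10 tested genes of serous cavity macrophages 1 was called higher and 0 lower by edgeR, and 0 higher and 1 lower with DESeq2. Prg4, lubricin, ranged from 0 to 351 CPM over the tags, with the highest value in tag 1 of library 2, against 1.92 to 207 CPM, and was not called (log2 −0.84, adjusted p = 0.0808), but without that tag it was called lower (log2 −1.02, adjusted p = 0.0378), as it was at matched depth (log2 −1.18, adjusted p = 0.0208). Of 7 tested osteoclast-type genes 3 were called lower. Atp6v0d2, a subunit of the proton pump, had 58.4 against 71.1 CPM (log2 −0.36) and 110 CPM in depth-matched cells (log2 −1.16). Without tag 1 of library 2, or without the cells rich in fibroblast transcripts, the first of these differences was no longer called (adjusted p = 0.0586 and 0.0636). Acp5, the tartrate-resistant phosphatase, was lower only at matched depth (log2 −0.21, adjusted p = 0.0855, and −0.46, adjusted p = 0.000947).

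Receptors for growth factors were low. Of 13 tested genes 9 were called lower and 0 higher (8 and 0 of 11 at matched depth), with a median log2 difference of −0.53. Csf3r, the receptor for granulocyte colony-stimulating factor, lay between 13.9 and 46.6 CPM against 56.3 to 94.3 CPM (log2 −1.43, SE 0.09, adjusted p = 8.62e-13). These ranges did not overlap, as in 0.156% of all genes tested in this direction. At matched depth the log2 difference of Csf3r was −1.07 and the ranges overlapped. Csf2rb, the common β chain that signals for GM-CSF and is nearly identical in part to a neighbouring copy, was lower by 0.56 on the log2 scale, and Il4ra, the IL-4 receptor, by 0.55. Csf1r had 754 against 1138 CPM (log2 −0.42, lower in 18 of 18 tags), and depth-matched cells had 828 CPM, against which the difference was −0.07 (adjusted p = 0.202).

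Of the genes the study is built on, F7 was scarce in both sets, from 0 to 45.5 CPM with a median of 16.3 against 1.28 to 54.0 CPM with a median of 10.6. It was higher in 9 tags and lower in 9 (log2 0.13, SE 0.19, adjusted p = 0.582). Tags of mice with and without Cre cannot be told apart here, so this level mixes both. F3, tissue factor, the receptor that factor VIIa binds, had 5.71 against 6.95 CPM (log2 −0.47, adjusted p = 0.225). F10, factor X, the substrate of that pair, had 36.9 against 52.5 CPM (log2 −0.59, adjusted p = 0.137), with −1.81 in library 1, 0.55 in library 2 and 0.61 in library 3. Tgfb1, which codes for TGF-β1, had 39.1 against 59.6 CPM (log2 −0.52) and Cybb, the catalytic subunit of the phagocyte oxidase NOX2, 998 against 1278 CPM (log2 −0.44), both called lower at any depth compared here.

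Metabolic genes that supply a dividing cell were higher. All 22 tested genes of nucleotide synthesis were called higher, and 21 of 21 at matched depth, with medians of 1.18 and 1.08 on the log2 scale. Several of them, such as Tyms and Rrm1, are also S phase genes that the rule moves. Mthfd2, the mitochondrial folate enzyme, had 43.2 against 15.9 CPM (log2 1.46) and 14.1 CPM in depth-matched cells (log2 1.49), and no tag of its cycling cells overlapped a tag of either comparison set. Of 20 tested genes of the respiratory chain and tricarboxylic acid cycle 19 were called higher and 0 lower, with a median of 0.23, and at matched depth 10 were higher and 0 lower, with a median of 0.15. Cycs, cytochrome c, lay between 65.0 and 163 CPM against 45.7 to 124 CPM and was higher in 18 of 18 tags (log2 0.68, and 0.53 at matched depth). Idh3a, a subunit of isocitrate dehydrogenase, had 47.3 against 23.8 CPM (log2 0.77 and 0.57), and Atp5b, the catalytic subunit of ATP synthase, 281 against 194 CPM (log2 0.45 and 0.32).

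Glycolysis did not move as a block, with 7 of 16 called higher and 2 lower, and 2 higher and 3 lower at matched depth. In library 1, 1 was higher and 5 lower, in library 2, 7 were higher and 0 lower, and in library 3, 8 were higher and 0 lower. Of all genes tested in these libraries alone, 3237 of 11694, 1940 of 10347 and 1712 of 9845 were higher. Those called lower were 3346, 1897 and 1566. Pgk1, phosphoglycerate kinase, had 543 against 359 CPM (log2 0.52, and 0.23 at matched depth). Gapdh, whose pseudogene copies make its count uncertain, had 1913 against 1391 CPM (log2 0.36 and 0.14). Cholesterol synthesis had 4 of 18 genes higher and 3 lower. Idi1, the isopentenyl isomerase, had the largest of its called differences, at 24.4 against 15.0 CPM (log2 0.74 and 0.70).

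Genes of the lysosome were mostly lower, and those of phagocytosis were mixed. Of 16 tested lysosomal genes 13 were called lower and 0 higher, and 15 and 0 at matched depth, with medians of −0.26 and −0.49. Ctss, cathepsin S, which trims the invariant chain, had 3962 against 5955 CPM and was lower in 18 of 18 tags (log2 −0.72, SE 0.04). Of 10 tested genes that take up dying cells 5 were called lower and 2 higher (5 and 0 at matched depth, where 1 was higher at an unadjusted p below 0.05). Mertk, the receptor tyrosine kinase for apoptotic cells, lay between 49.3 and 113 CPM against 86.9 to 155 CPM (log2 −0.68, and −0.79 at matched depth). Its relative Axl had 59.8 against 155 CPM (log2 −0.83), but 63.5 CPM in depth-matched cells (log2 0.05, adjusted p = 0.762). C3ar1, the receptor for the complement fragment C3a, had 747 against 938 CPM (log2 −0.51 and −0.63), 1 of 8 complement genes called lower of 10 tested. The list includes the 3 C1q genes, which the rule also limits.

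Immediate early and stress genes were called lower in 13 of 15 tests and higher in 0, and at matched depth 9 were lower and 1 higher, with medians of −0.62 and −0.32. Jund, an AP-1 subunit, had 531 against 1051 CPM (log2 −0.81 and −0.49). The inducible heat shock genes Hspa1b and Hspa1a, whose near-identical sequences make their split uncertain, had 104 and 152 CPM against 437 and 487 CPM. Their log2 differences of −1.58 and −1.48 became −0.19 (adjusted p = 0.313) and −0.40 (adjusted p = 0.0353) at matched depth. These genes also respond to tissue digestion, whose part was not tested.

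Among the chemokine genes Ccl2 was higher in cycling cells. Ccl2, the ligand of CCR2, lay between 302 and 1502 CPM with a median of 784 in cycling cells, against 171 to 1102 CPM with a median of 308, and was higher in 18 of 18 tags (log2 0.67, SE 0.12, adjusted p = 4.05e-05). At matched depth the comparison level was 433 CPM and the log2 difference 0.57 (adjusted p = 8.94e-05). Ccl7, a second ligand of CCR2, had 410 against 238 CPM (log2 0.49, adjusted p = 0.0367), with −0.10 in library 1, 0.85 in library 2 and 1.05 in library 3, and was not called at matched depth (log2 0.26, adjusted p = 0.201). Ccl8, from the same gene cluster, had 184 against 286 CPM and went the other way (log2 −0.73, and −1.17 at matched depth). In the whole list 2 of 16 genes were called higher and 3 lower, so the list as a group had fewer calls than all genes tested.

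Outside the lists the largest differences belonged to further division genes. Those genes travel with the genes of the rule and are given as a description. Pbk, a mitotic kinase, had 83.1 CPM (45.5 to 170) against 0.264 CPM, Prr11, a proline-rich protein of late cell cycle, 108 CPM against 0.977 CPM, and Aspm, the spindle pole protein, 58.3 CPM against 0.343 CPM. Their log2 differences were 7.82, 6.86 and 6.79. On the lower side Tcp11l2 lay between 28.3 and 72.9 CPM against 75.7 to 128 CPM (log2 −1.40), with no overlap. Mxd4, a MAX partner that opposes MYC, lay between 19.6 and 55.1 CPM against 57.2 to 106 CPM (log2 −1.23), and Lst1, a leukocyte transcript of the MHC class III region, between 26.4 and 88.6 CPM against 91.1 to 168 CPM (log2 −1.20), both also without overlap. Such a gap in this direction was found in 0.156% of all genes tested. Ypel3, a gene linked to growth arrest, had 94.0 against 272 CPM (log2 −1.33), lower in 18 of 18 tags. All 4 lower genes were also called at matched depth, with log2 differences of −1.18 for Tcp11l2, −1.09 for Mxd4, −0.78 for Lst1 and −1.05 for Ypel3.

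The question was also asked from the other side: in which ranges of macrophage genes did the cycling cells lie? For each of 10 small gene sets, the C1q cells in the top 25% of their tag by the share of molecules from the set, with at least 1 such molecule, formed a range, and the share of cycling cells inside and outside was compared over the 18 tags with a two-sided sign-flip permutation test, adjusted over the 10 ranges. A range is a band of levels and not a cell type, and bands overlap: 372 cycling cells lay in 1 range, 568 in 2, 375 in 3, 200 in 4 or more and 116 (7.11%) in none.

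Cells high in Ly6c2, Plac8 and Ccr2 cycled less often than the other C1q cells. Inside this monocyte range the share was 0 to 9.73% with a median of 4.43%, and outside it 2.88% to 22% with a median of 8.87%. It was lower inside in 16 of 18 tags, by a mean of 6.60 points (adjusted p = 0.000933). The MHC class II range held 4.16% against 9.31% at the median, lower in 16 of 18 tags, with a mean difference of −4.31 points (adjusted p = 0.000800). Cells inside these ranges were shallow, with medians of 12776.2 and 12628.5 molecules against 19622 and 19502.2 outside. Among cells at the depth of the cycling cells the differences were −1.96 points (adjusted p = 0.556) and 1.94 points (adjusted p = 0.556), so neither was called and the class II one changed sign.

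The resident range, of Lyve1, Folr2 and Cbr2, held 11.6% cycling cells at the median against 6.32% outside, higher in 13 of 18 tags (mean 3.37 points, adjusted p = 0.0107). The cavity range, of Prg4, Gata6 and Alox15, held 16.6% against 6.89%, higher in 17 of 18 tags (mean 7.06 points, adjusted p = 0.000600). Both ranges hold deep cells, with medians of 25497.2 and 27484 molecules against 15813.5 and 16443.8 outside. At the depth of the cycling cells the differences were 0.351 points (adjusted p = 0.836) and 1.74 points (adjusted p = 0.470). Since most cells had no molecule of the cavity genes, that range held 1357 of the 14485 C1q cells, fewer than the 3624 of each other range. Its lower edge was a share of 0.00127% of molecules at the median tag.

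The opposite happened in the Gpnmb and Fabp4 range and in the osteoclast range, of Acp5, Ctsk and Atp6v0d2. The first held 9.11% against 8.71% cycling cells (mean −0.956 points, adjusted p = 0.283) and the second 8.18% against 8.45% (mean −1.63 points, adjusted p = 0.0242). At the depth of the cycling cells the differences were −12.1 and −10.7 points, both with an adjusted p of 0.000200. Deep cells high in these phagocyte genes therefore cycled less often than other deep cells of their tag. The Arg1 and Ppbp range changed from 0.560 points (adjusted p = 0.716) to −6.38 points (adjusted p = 0.0266), and the Fcrls and Hpgds range from 1.79 points (adjusted p = 0.283) to 6.29 points (adjusted p = 0.0406). The Saa3 and Slpi range was called in neither setting (−0.907 and −3.42 points), and the interferon range, lower by 2.46 points (adjusted p = 0.0143) in all cells, was 0.766 points (adjusted p = 0.763) at that depth.

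**Figure D4:**
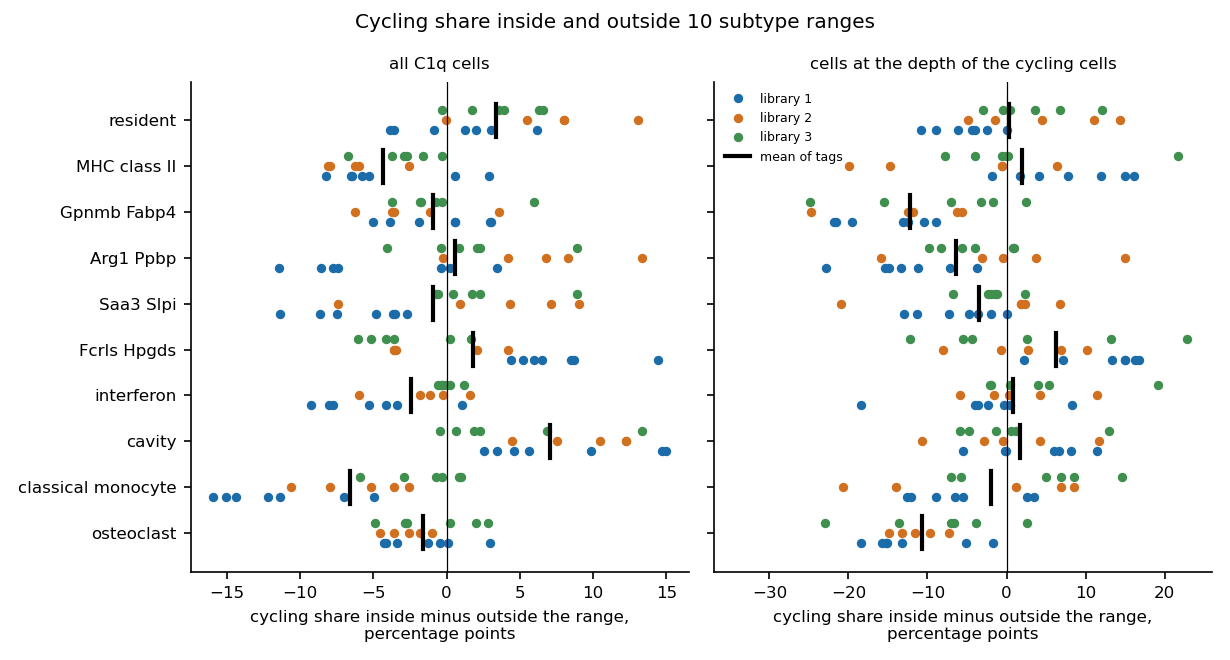
Difference in the share of cycling cells inside minus outside each of 10 gene ranges, in percentage points (horizontal axis), with 1 point per sample tag, colour for the library and black bars for the mean, for all C1q cells (left) and for cells at the depth of the cycling cells (right). The monocyte range lies at a mean of −6.60 points on the left and −1.96 on the right, and the Gpnmb and Fabp4 range at −0.956 and −12.1.

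The cycling cells themselves were spread over the phases. The share of S phase molecules in the sum of both phase lists had a median of 35.3%, with 25% of cells under 18.7% and 25% above 61.8%, and 574 of 1631 cells (35.2%) had more S than G2 and M molecules. The medians of single tags lay between 26.1% and 51.5%. Within each tag the cycling cells were split by this share, and the S-poor outer group (538 cells, median 14% S) was set against the S-rich one (551 cells, median 67.2% S). Ccne2, cyclin E2, and Cdc6, the origin licensing factor, had 0.805 and 2.83 CPM in the S-poor group and 62.4 and 51.2 CPM in the S-rich group, while Ccnb1, cyclin B1, and Cdc20 had 216 and 158 CPM against 27.1 and 6.20 CPM. These genes define the split and are a description. The S-rich cells were deeper (median 44767 against 37237.5 molecules) and had a smaller 5-gene sum (28 against 121.5), since the genes of the rule peak in G2 and M.

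Macrophage genes differed along this axis. In 9 genes compared over the 18 tags by a sign-flip permutation test, adjusted over the 9, Ccr2 had 219 CPM in S-rich and 422 CPM in S-poor cells, lower in 18 of 18 tags (mean difference of log2(CPM + 1) −0.94, SE 0.16, adjusted p = 0.00027). Cx3cr1 had 157 against 305 CPM, lower in 16 of 18 tags (−0.71, SE 0.13, adjusted p = 0.00054). Folr2 had 241 against 167 CPM, higher in 17 of 18 tags (0.77, SE 0.12, adjusted p = 0.00027). The chemokine receptor genes were thus higher in the G2 and M end and the resident gene in the S end. Ccl2 was higher in S-rich cells in 14 of 18 tags (904 against 631 CPM, adjusted p = 0.00679), as was Arg1 (848 against 471 CPM, adjusted p = 0.0412). H2-Aa (adjusted p = 0.0650), Apoe (0.116), Gpnmb (0.208) and Spp1 (0.269) did not pass the threshold. The part of depth and of the gate in these differences was not tested.

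**Figure D5:**
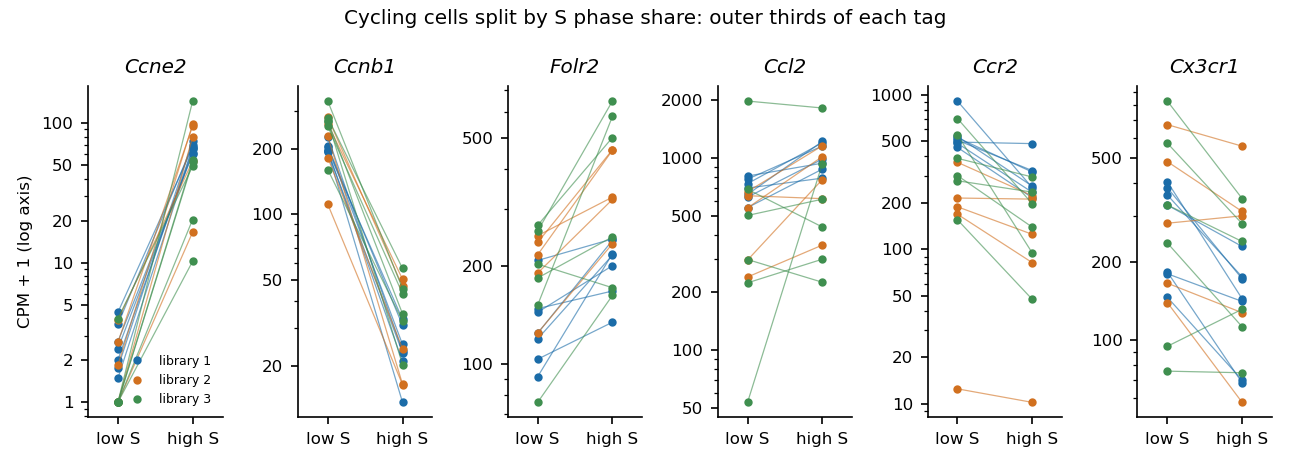
Levels in CPM + 1 (vertical log axis) of 6 genes in the S-poor (low S) and S-rich (high S) outer groups of the cycling cells of each sample tag, with lines joining the groups of 1 tag and colour for the library. Ccne2 and Ccnb1 show the split, Folr2 and Ccl2 are higher in S-rich cells, and Ccr2 and Cx3cr1 are lower.

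Levels of several genes shifted with the 5-gene sum, not all of them steadily. From cells with a sum of 0, through 1 to 2, 3 to 9, 10 to 19 and 20 to 99, to those with at least 100, the median over tags of Apoe was 10094, 7943, 5551, 4706, 3480 and 3721 CPM. Klf4 went from 581 through 518, 444, 421 and 322 to 320.2 CPM, and Btg2 from 215 through 161, 136, 117 and 103 to 87.5 CPM. The lower levels of these genes were therefore already visible in C1q cells below the limit. Ccl2 was level at 308 and 306 CPM in the lowest bins and then stood at 517, 693, 827 and 871 CPM. H2-Aa was at 1876, 1059, 829, 417, 641 and 387 CPM. Arg1 rose from 741 CPM at a sum of 0 to 1327 CPM at 3 to 9 and was at 409 CPM in the highest bin. Gpnmb was highest, at 2132 CPM, at a sum of 1 to 2. Median depth moved in parallel, from 15896.5 through 22719, 28654, 37244 and 36384 to 51115.5 molecules.

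Finally, the cycling C1q cells were compared with 645 other cycling cells of the same tags, 496 of which had C1q below the limit and 149 of which had a lymphoid transcript. This comparison was added after the data had been seen. It asks how the cycling C1q cells differ from other dividing cells of the same tags. The limits on C1q and lymphoid transcripts set the cells apart and the limit on the 5-gene sum is common to both, so the values are given as a description. Of 8979 genes, 21.8% were higher and 21.7% lower in the cycling C1q cells. Of 52 G2 and M genes 2 were higher and 6 lower, and of 46 S phase genes 1 was higher and 13 lower, with medians of 0.06 and −0.11 on the log2 scale. Nucleotide synthesis was lower, in 15 of 22 genes, with 2 higher and a median of −0.39. Of the regulators, Ccnd2, cyclin D2, had 29.5 against 101 CPM (log2 −1.88) and Ccnd3, cyclin D3, 64.1 against 114 CPM (log2 −0.75), while Cdkn2c was higher by 0.52.

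The limit on C1q also chose for macrophage genes. All 14 tested resident genes and all 16 lysosomal genes were higher in the cycling C1q cells, with medians of 1.5 and 0.84 on the log2 scale. Maf, lower than in non-cycling macrophages, was higher than in other cycling cells by 1.36. All 9 tested MHC class II genes were lower, with a median of −1.60. The other cycling cells are a mixture: 6 of 6 fibroblast markers were higher in them, and so were 7 of 8 T cell markers, of which the limits keep Cd3e, Cd3d and Cd3g out of the cycling C1q cells. Higher in them were also 4 of 5 tested markers of conventional dendritic cells and 3 of 3 of mature dendritic cells. Which of these cells carried the MHC class II genes was not tested.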

How the data were processed

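The deposited molecule counts per cell and gene, error-corrected by the RSEC method per the file headers, came from BD Rhapsody pipeline 2.0b1 on Enhanced beads for library 1 and 1.10 on Original (V1) beads for libraries 2 and 3, with GRCm38 and GENCODE M19 as the reference (headers of the deposited files, and for the build also the submitters' processing notes). How reads of near-identical copies were counted is not stated there. Of 25762 cells, 122 with fewer than 200 genes were left out. The gene lists, the cell set and the ranges were chosen with earlier results of these data known.

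Counts were summed per sample tag and cell set (tags with at least 10 cycling cells, 18 of 18) and tested with edgeR 4.0.16 (TMM scaling, filterByExpr, quasi-likelihood F test, tag as a block, Benjamini-Hochberg over all tested genes, threshold 0.05). Levels are molecules for every 1000000 molecules of a set (CPM). The pairing by tag comes from the cells' own tag, since both sets of a pair are cells of the same tag. P-values measure the spread between tags. On counts simulated from these data for 10623 genes, 100% of genes changed by 1 on the log2 scale and 73% of those changed by 0.5 were recovered, with 0.0768% false calls. The changed genes, 100 per size, were drawn from genes with higher counts, moved equally up and down, and a fixed dispersion was used. Far more genes were called in the data than were changed there, so these shares may not hold for the real comparison. Shares inside and outside gene ranges were compared by sign-flip permutation (100000 resamples, two-sided, scipy 1.17.1).

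Named genes were, per list, up to 3 called genes in each direction with the largest differences and at least 20 CPM in the higher set, the genes a list is named for, the study's genes, and outside the lists the largest called differences with at least 50 CPM and 1 direction in all tags, of which 3 higher and 4 lower are given. Csf1r, Ccnd1, Ccnd2, Ccnd3, E2f1, Cdkn1a, Maf, Spp1, Ms4a7, Cd68 and Il7r were named after their values were seen. Doublets were scored with Scrublet (scanpy 1.11.5) at an expected rate of 6%, whose own threshold called 0, 1 and 0 cells per library, so the top 2% per library was used. The table that assigns tags to genotypes and times was not used here. Some list members are not reported here. Alternatives were DESeq2 1.42.0, its size factors, no count filter, no block, single libraries, each library left out, other limits on the 5-gene sum and on C1q, tags with at least 20 cycling cells, depth-matched cells, cells without top doublet scores, without cell cycle genes, and comparison cells below 10. Chosen after seeing the data were the depth-free limit with matched cells, ranges at the depth of cycling cells, the fits without fibroblast-transcript cells and without tag 1 of library 2, and the comparison with other cycling cells.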

Additional observations from a re-analysis of the deposited data

Results flagged for a closer look

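The differences in cycling share between the inside and the outside of a gene range were not the same in library 1 (7 tags) and in libraries 2 and 3 (11 tags). Exact permutation of the library labels over tags, two-sided and adjusted over 10 ranges, called 6 of them. The Fcrls and Hpgds range held more cycling cells than the rest in library 1 (mean 7.67 points) and fewer in libraries 2 and 3 (mean −1.94 points), a difference of 9.61 points (adjusted p = 0.000628). The Arg1 and Ppbp range went from −4.55 to 3.81 points (difference −8.37, adjusted p = 0.0101), and the Saa3 and Slpi range from −6.04 to 2.36 points (difference −8.39, adjusted p = 0.00461). These 3 ranges thus had means of opposite sign in the libraries.

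The classical monocyte range was lower in both, by −11.5 points in library 1 and −3.45 points in libraries 2 and 3 (difference −8.10, adjusted p = 0.00461). The interferon range was −5.26 against −0.675 points (difference −4.58, adjusted p = 0.0101). The resident range was 0.589 against 5.13 points (difference −4.54, adjusted p = 0.0405). Beads, pipeline release, depth and an unknown mix of times and genotypes differ between these libraries, so their parts cannot be told apart.

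Of 42 groups of tags searched for a single distant value, 4 held one, and chance flags about 1 group in 20. In library 1 the Fcrls and Hpgds range of 1 tag (tag 10) differed by 14.4 points, with the next tag at 8.66. In library 3 the Gpnmb and Fabp4 range of tag 10 was at 5.96 points, with the next at −0.310, and the Saa3 and Slpi range of tag 12 was at 8.91 points, with the next at 2.25. In library 2 the cycling cells of tag 5 had a median of 20768 molecules, with the next tag at 35395.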

How the results depend on the processing

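Of 10912 genes, 3050 were called higher and 3675 lower, and the alternatives run kept both counts within 1.5 times, except single libraries 2 and 3. Library 2 alone gave 1940 and 1897 and library 3 alone 1712 and 1566, from fewer tags. Leaving out 1 library gave 2612 to 3083 higher and 2592 to 3364 lower. Without the replicate block that pairs the sets of a tag, 2666 were higher and 2826 lower. The DESeq2 test gave 3011 and 3974.

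Ranges depended more on the setting (mean differences in points). With the depth-free limit the resident range was 1.83 (adjusted p = 0.0523) and the Gpnmb and Fabp4 range −2.24 (adjusted p = 0.00452). Above the median depth of a tag the resident range was 1.84, MHC class II −0.859, Gpnmb and Fabp4 −7.01 (adjusted p = 0.000700) and interferon −2.32 (adjusted p = 0.0888). With the upper 50% of cells as the range, Saa3 and Slpi was 2.70, interferon 1.81 and osteoclast 0.00683. At the depth of the cycling cells resident was 0.351, MHC class II 1.94, Gpnmb and Fabp4 −12.1, Arg1 and Ppbp −6.38, Fcrls and Hpgds 6.29, interferon 0.766, cavity 1.74 and classical monocyte −1.96. Leaving out 1 library in turn gave 2.00 to 5.13 for resident, −1.94 to 4.11 for Fcrls and Hpgds, −3.70 to −0.675 for interferon and −2.0 to −1.22 for osteoclast. Over the same fits MHC class II gave −4.97 to −3.60, cavity 6.17 to 8.56 and classical monocyte −9.23 to −3.45, all called. The cause was not tested.

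Of 1764 gene values under the alternatives, 1621 kept their call or lack of one, 69 were no longer called and 60 became called. A further 14 changed sign where the main or the alternative value was called. Changes of sign with a call in neither are counted among the 1621. In library 1 alone the log2 difference was −0.11 for Fcna, 0.029 for Igf1, −0.86 for Arg1, 0.10 for Hpgds, 0.51 for Fcrls, 0.44 for Cx3cr1 and −0.10 for Ccl7. Against depth-matched cells it was −0.12 for Folr2, 0.052 for H2-Eb1, 0.96 for Cx3cr1, 0.055 for Axl and −0.57 for Spp1, and with the depth-free limit as well 0.46 for Cx3cr1 and −0.36 for Spp1. The main limits are the depth gap between the sets, 13 cycling cells in the smallest tag, and the unknown genotype and time of each tag.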
